A study of Mus musculus with 12 samples.

Results

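A peak list for the RNA-binding protein YTHDF2 in mouse macrophages was examined for the peaks whose summit lies in a 3′ untranslated region (3′ UTR). After identical rows were dropped, the list held 17843 distinct peaks, and the summit of 17621 of them fell inside a listed transcript feature. The numbers in the peak names ran up to 25487, and the sources used here do not say whether peaks were left out. All shares are of listed peaks. A summit that fell in features of several classes was assigned to the 3′ UTR first, then to coding sequence, 5′ UTR and intron. By that rule 6902 peaks, 39.2% of the placed peaks, had their summit in a 3′ UTR. Another 6288 lay in coding sequence, 4075 in introns and 356 in 5′ UTRs. The 6902 peaks came from 4608 genes, 75 of them lay in the 3′ UTRs of 2 genes at once, and 3311 were on the plus strand and 3591 on the minus strand.

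The cells were bone-marrow-derived macrophages of C57BL/6 mice, either wild type (WT) or with a conditional knockout of Ythdf2 (cKO). The labels used here do not name the Cre driver. All 12 libraries came from cells that were kept in M-CSF (20 ng/ml) over 7 days and were then given LPS (100 ng/ml) together with interferon gamma (20 ng/ml). This treatment lasted 24 hours and gives the inflammatory M1 type. They fell into 6 groups of 2: m6A immunoprecipitates and their inputs from WT and from cKO cells, and YTHDF2 immunoprecipitates and their inputs from WT cells alone. The YTHDF2 peaks therefore describe WT cells, and the comparison of genotypes rests on the m6A input RNA. The labels do not say whether the 2 replicates of a group were separate mice, so p-values may measure technical spread only.

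YTHDF2 is a cytoplasmic protein that binds RNA carrying N6-methyladenosine (m6A), and it is known for bringing the CCR4-NOT deadenylase complex to marked messenger RNAs, which shortens their life. In mammalian messenger RNA, m6A is found mainly near the stop codon and in the 3′ UTR, within short words such as GGACT. The 3′ UTR also holds other decay signals, among them AU-rich elements and microRNA sites, which are well known in the messages of cytokines and early response genes in macrophages.

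Genome sequence at the summits was read from RefSeq promoter windows (GRCm38.p6, the assembly behind mm10), which reach a summit only where the start of another gene lies close by. There were 10 such summits, and all are shown because they are the ones for which sequence was at hand; they were not chosen for their values. Each line gives 29 bases centred on the summit, 5′ to 3′ on the strand of the gene that owns the 3′ UTR, and capitals mark words of the m6A, AU-rich, polyadenylation or Pumilio type. A pair of scrambled control words, TCAGG and GGTCT, was also searched and is left in lower case. The words of the m6A consensus were GGACT and its variants AGACT, also GGACA along with GGACC, besides GAACT together with AAACT. The others were the AU-rich word ATTTA with its longer form TATTTAT (which contains the shorter), the polyadenylation signal AATAAA and the Pumilio element by its name.
Lmln, chr16:33124048-33124076, plus strand: caggatctcAGACTtcccgcccccactgc
Mlst8, chr17:24473798-24473826, minus strand: cccactgcttccttcccagccagtatctg
Mrpl43, chr19:45005623-45005651, minus strand: ttggatttcaagctcaggccgagtaggtg
Mvb12b, chr2:33733246-33733274, minus strand: ccgctgAGACTtccctgcctccctgggac
Pcif1, chr2:164891177-164891205, plus strand: tcagggctctcccctggggtggcagcagg
Zgpat, chr2:181381192-181381220, plus strand: ttgtggtaattgcctagtgatagcattag
Xpc, chr6:91490001-91490029, minus strand: agacagcaagcagatgggctgaGGACTac
Arpc4, chr6:113389211-113389239, plus strand: ggcgactatttttcccgagccacccccgg
Gsk3a, chr7:25228556-25228584, minus strand: cctcccccaggctaccactccttccctcc
Mon1b, chr8:113643127-113643155, plus strand: cacctgtgccgccccgccccctgttttcc

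Within these 29 bases, 3 of the 10 sites held an m6A word: AGACT at Lmln and Mvb12b, and GGACT at Xpc, a DNA repair gene. Over the wider 101 bases around the summit, which were complete for 8 sites, AGACT was present at 4 and GGACT at 2. GGACT occurred in 9.13% of 32851 promoter windows of the same length on the gene's strand and AGACT in 9.82%. The control word TCAGG, which is not an m6A word, was present at 3 of the 8 sites and in 13.03% of the promoter windows. Pcif1, which encodes the methyltransferase of the cap-adjacent adenosine, held 2 copies of GGACT within 50 bases of its summit. ATTTA was found at 0 of the 8 sites on the gene's strand and at 2 on the opposite strand. The summits of Mrpl43, a mitochondrial ribosomal protein gene, and of Mvb12b lay inside a WT m6A peak, and the peaks of Gsk3a and Mon1b overlapped one beside the summit. A match of a word is a description of these letters, and 8 sites of 6902 do not stand for the whole set.

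MicroRNA hairpins were a second source of sequence. Of 1005 hairpins in the RefSeq table, 17 overlapped a 3′ UTR peak, 16 of them on the strand of the gene. The UTR segment that holds the summit wholly contained 5 of them, and all but the hairpin of miR-1892 also lay wholly inside the peak. Their mature forms are given because they are stretches of these UTRs whose letters are known (RefSeq, GRCm38.p6, seed bases 2 to 8 in capitals).
miR-546 in Ctdsp2, chr10:126998471-126998486: aUGGUGGCacggaguc
miR-1892 in Sptssa, chr12:54645943-54645964: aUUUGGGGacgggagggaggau
miR-8115 in P2rx7, chr5:122682664-122682685: cCGCAAUAgcaacaagggcucu
miR-7670-5p in Ubn2, chr6:38507325-38507346: aUUCAGAUgggcagauugggaa
miR-7670-3p in Ubn2, chr6:38507371-38507393: uUCCCUUUcugaauaucuguaga
miR-705 in Rab11fip5, chr6:85336341-85336360: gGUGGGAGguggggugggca

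These 6 mature sequences have different seeds. The summit of the Ctdsp2 peak, of 2.59-fold enrichment, lay within the miR-546 hairpin itself. P2rx7, the ATP-gated channel that can trigger the inflammasome in macrophages, had its summit 14 bases from the miR-8115 hairpin in a peak of 2.72-fold enrichment. Another summit inside a hairpin was that of Clcn7, a lysosomal chloride channel gene, at miR-12188, whose hairpin lies partly outside the UTR segment. None of the 5 peaks of Ctdsp2, Sptssa, P2rx7, Ubn2 and Rab11fip5 overlapped an m6A peak.

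Several facts of the series bear on the values that follow. The peak list is deposited as the YTHDF2 immunoprecipitation, yet all 17843 of its peaks carry names that begin with m6a_peak; which libraries gave the names was not settled, so the list is called YTHDF2 on the strength of its deposition. It is a single list for the WT group with no value per library, so no spread between replicates can be given for any peak. The fold enrichments, q values and summits are the authors' own. In the authors' deposited table of input RNA, all 8 macrophage markers were tested, with mean normalized counts from 2991 to 204979. The highest marker of B cells stood at 49.0, of dendritic cells at 30.1, of T and NK cells at 249 (Cd4), of fibroblasts at 580 and of neutrophils at 8496 (Csf3r). The other tested neutrophil markers, S100a8 and S100a9, stood at 304 and 326, and the median of the neutrophil list was 153.

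The 3′ UTR peaks had a median fold enrichment of 2.91, where fold enrichment is the authors' ratio of pulldown to background at the summit. The central 90% of the peaks lay between 1.91 and 5.16, and the whole range was 1.42 to 12.99. Coding sequence peaks had nearly the same median, 2.94, and 5′ UTR peaks 2.81, whereas intron peaks stood at 3.36. Peaks of 4-fold or more made up 16.7% of the 3′ UTR class, 18.1% of the coding class and 30.6% of the intron class. The median −log10 q of the 3′ UTR peaks was 12.4, with values from 1.33 to 60.7. In enrichment the 3′ UTR peaks thus resembled coding peaks.

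Width set the classes further apart. The median 3′ UTR peak covered 498 bases, against 345 in coding sequence, 331.5 in 5′ UTRs and 312 in introns. The narrowest 3′ UTR peaks covered 200 bases, which was also the smallest width in each other class. The widest was in Atxn1l, a gene related to that of spinocerebellar ataxia, and covered 5662 bases of chromosome 8. It was followed by Rassf4 with 4628 bases, Il6st, the shared signalling receptor of the interleukin-6 family, with 4503, the decapping enzyme gene Dcp2 with 4407 and Mlec with 4406. All but that of Mlec overlapped an m6A peak. Wider peaks have more room to overlap another peak, so the m6A shares below are also given for the summit alone and within ranges of width.

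**Figure D1:**
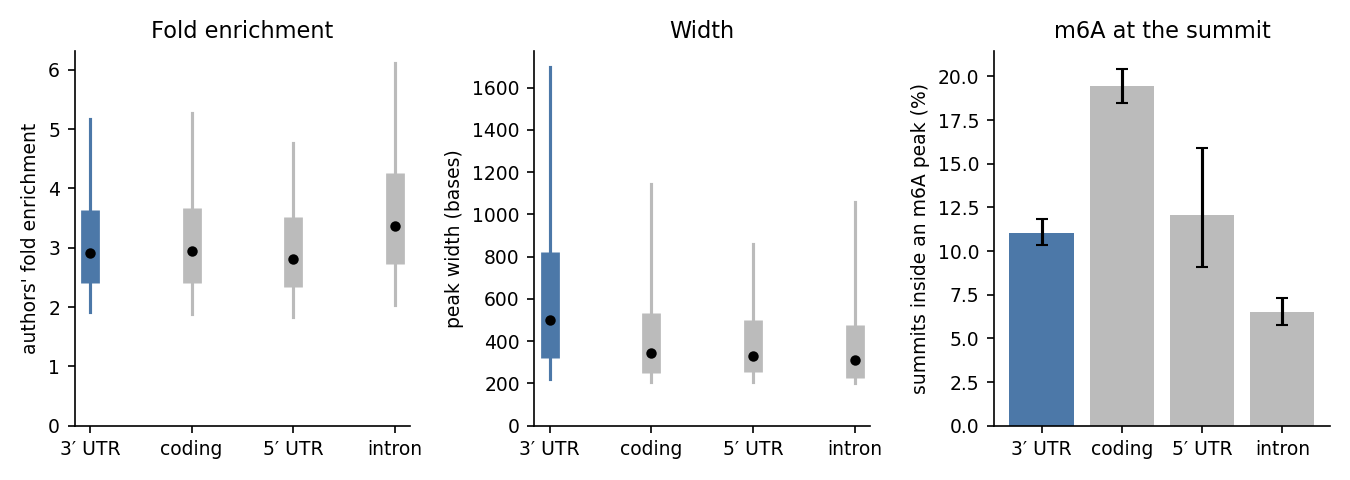
Authors' fold enrichment (left), peak width in bases (middle) and the percent of summits inside an m6A peak (right) for YTHDF2 peaks with summit in the 3′ UTR (blue), coding sequence, 5′ UTR and intron (grey). Points are medians, thick lines the middle 50%, thin lines the middle 90%, and error bars on the right are 95% Wilson intervals; the 3′ UTR peaks have a median width of 498 bases, and 11.1% of their summits lie inside an m6A peak against 19.4% in coding sequence.

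The members of highest fold enrichment in tested genes were mostly narrow peaks in weakly expressed genes. Eif2s3x, which encodes a subunit of the translation initiation factor eIF2, led with 12.99-fold over 230 bases (chrX:94188772-94189001), at a summit 1959 bases into a UTR of 2152. Sccpdh followed with 12.1-fold (chr1:179686800-179687119) and Ahi1, a cilium gene, with 10.7-fold (chr10:21078934-21079598). Jund, a member of the AP-1 transcription factor family, had a 9.53-fold peak (chr8:70700183-70700448) in the middle of its UTR. Next came the netrin receptor gene Unc5b at 9.12-fold, the ubiquitin ligase adaptor gene Asb7 at 9.03-fold and Naip1, an inflammasome sensor, at 8.65-fold. Twnk, the mitochondrial DNA helicase, had a peak of 8.61-fold, and the cytoplasmic poly(A)-binding protein gene Pabpc4 one of 7.97-fold. In the highest of 4 equal groups by fold enrichment, 14.9% of the peaks overlapped an m6A peak of their gene. None of the 15 of highest enrichment did, but of their genes only Twnk and Ttl had any listed m6A peak. According to the authors' deposited table, the mean normalized count of the 15 genes ran from 94.4 (Bnip5) to 908 (Eif2s3x), and 1 of the 15 was called: Naip1, at a log2 fold change of 0.99. Naip1 has near-identical copies next to it, so its reads may be shared with them.

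Ranked by q value, the first members were other genes. Btbd1 had the highest −log10 q, 60.7, in a peak of 7.14-fold near the end of its UTR (chr7:81792143-81792484). The gene named 1810037I17Rik followed at 52.8, then Ngrn at 52.6, the transcriptional regulator gene Gon4l at 51.9 and the ataxin gene Atxn3 at 49.1. Ifngr2, a chain of the interferon gamma receptor through which these cells were stimulated, was seventh with a −log10 q of 48.7 and a fold enrichment of 3.78 (chr16:91562786-91563907). Of these 10 peaks, 4 overlapped an m6A peak: those of Ngrn, Atxn3, Ifngr2 and Yeats4.

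Positions were measured from the 5′ start of the UTR segment that holds the summit, which is the stop codon where the 3′ UTR is a single segment. For 359 of the 6902 peaks the segment is numbered past the first of its transcript, so the start of the segment can be an exon border. The median summit lay 683 bases from the start, with the middle 50% between 234 and 1531, in a segment of median length 1968. Relative to its length, the median position was 0.423. The first 200 bases held 1533 summits, 22.2% (95% Wilson interval 21.2 to 23.2, which covers counting error only; peaks of 1 gene are not independent). Over 10 equal parts of the segment, the first held 1040 summits, the second to ninth between 633 and 783, and the last 257. Summits were thus densest next to the start, spread over the whole UTR, and sparse at the very end.

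Median enrichment was close on either side of the border between coding sequence and UTR. On the UTR side, 534 summits lay within the first 50 bases of their segment, with a median enrichment of 2.85. These were counted over all segments, also those that start at an exon border. On the coding side, 463 summits lay within the last 50 bases before a listed 3′ UTR, with a median of 2.86. The sides are therefore not fully matched. Median enrichment along the UTR went from 2.72 in the first of the 10 parts to 3.36 in the last.

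Summits in long UTR segments lay further from the start when counted in bases. In segments under 500 bases, 87.6% of summits were within 200 bases of the start, and in segments of 8000 bases or more 3.60% were. A fixed 200 bases is a larger part of a short segment, so these shares depend on length by construction. Relative to length, the median position was 0.245 in segments under 500 bases and between 0.411 and 0.463 in the longer ranges. The last of the 10 parts held 0.265% of the summits in segments of 1000 to 1999 bases and 13.5% in those of 8000 or more. The farthest summits were all in Zbtb20, a transcriptional repressor gene with a segment of 23858 bases: the last lay 23037 bases from its start, at 2.83-fold enrichment, and 4 others lay between 16648 and 22536 bases. None of these 5 overlapped an m6A peak, and the gene had no listed m6A peak at all.

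**Figure D2:**
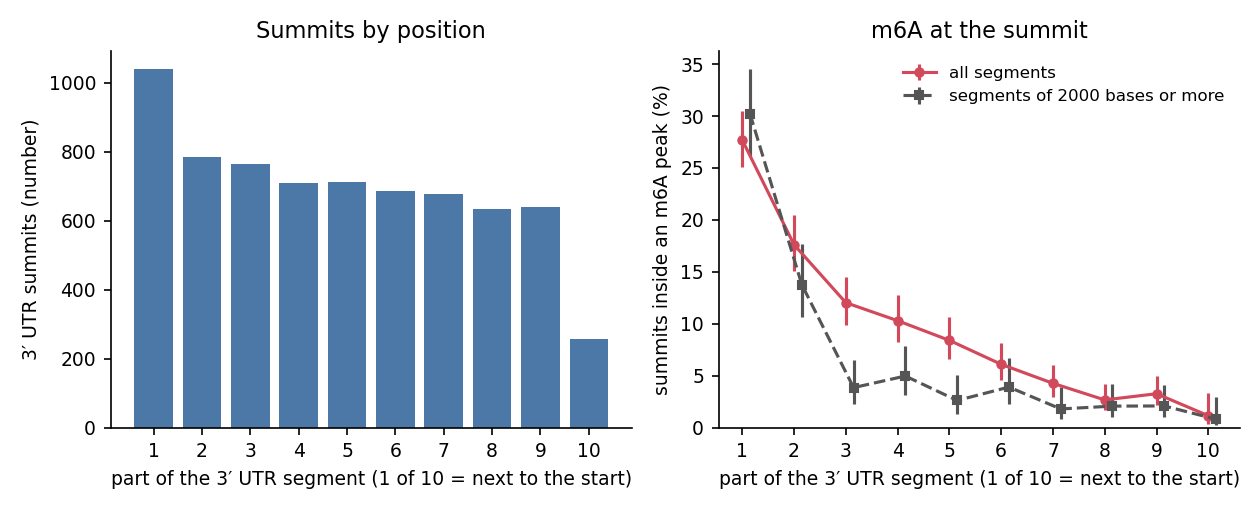
Number of 3′ UTR summits in 10 equal parts of the UTR segment that holds them (left; part 1 adjoins the segment's start) and the percent of those summits inside an m6A peak (right; red circles, all segments; grey squares, segments of 2000 bases or more; bars are 95% Wilson intervals). Part 1 holds 1040 summits and the last 257, and the m6A share goes from 27.7% to 1.17% along all segments.

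Most genes had a single 3′ UTR peak, and a minority carried series of them. Of the 4608 genes, 3115 had 1 peak, 956 had 2, 335 had 3 and 202 had 4 or more, and 55.7% of all the peaks lay in genes with several. Neighbouring summits in the same UTR segment were a median of 915 bases apart (middle 50% 644 to 1319, smallest 146, over 2293 pairs). The longest series was in Tnrc6b, which encodes a GW182-family scaffold of microRNA silencing: 11 peaks of 2.41-fold to 5.77-fold lay between 730 and 10997 bases into a segment of 11610. Taok1, a kinase gene, had 9 peaks of 1.95-fold to 3.02-fold. Ago3, an Argonaute that loads microRNAs, Atxn1, the kinase gene Braf, the histone demethylase gene Kdm7a, the adaptor gene Pag1, the transcription factor gene Pou2f1 and Zbtb20 had 7 each. Flna, the actin crosslinker gene, had 8, but these summits lie in 8 separate segments of the listed transcript, so they are not a series along a single UTR.

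Of these series, Tnrc6b had 0 of 11 summits inside an m6A peak, Taok1 0 of 9 and Ago3 0 of 7. Kdm7a had 1 of 7 and Pag1 2 of 7. Long segments held few such summits in general. The share over all 3′ UTR summits was 5.59% in segments of 4000 to 7999 bases and 2.70% in those of 8000 or more. In the authors' deposited table, none of these 10 genes was called, and their log2 fold changes ran from -0.09 (Flna) to 0.19 (Taok1, Atxn1 and Zbtb20). Many of the genes also had peaks elsewhere: 1905 (41.3%) had one in coding sequence, 1098 (23.8%) in an intron and 233 (5.06%) in a 5′ UTR. For 2212 genes (48.0%) every placed peak was in the 3′ UTR.

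The WT m6A list, with 10290 peaks in 5447 genes, was then laid over the YTHDF2 peaks. It gives no chromosome, so peaks were compared within a gene of the same name. Of the 6902 3′ UTR peaks, 1561 or 22.6% (Wilson interval 21.6 to 23.6) overlapped an m6A peak by at least 1 base, and 763 or 11.1% had the summit inside one. For coding sequence peaks the same shares were 29.8% and 19.4%, for 5′ UTR peaks 21.6% and 12.1%, and for intron peaks 10.8% and 6.50%. The gene had an m6A peak somewhere for 59.0% of the 3′ UTR peaks and 64.6% of the coding peaks. Among peaks in such genes, 18.7% of the 3′ UTR summits and 30.1% of the coding summits lay inside an m6A peak.

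The share was lower in the 3′ UTR than in coding sequence in each of 4 ranges of width. Of peaks 200 to 299 bases wide, 8.04% of the 3′ UTR summits and 12.6% of the coding summits were inside an m6A peak. At 300 to 499 bases the shares were 9.32% and 18.4%, and at 500 to 999 bases 13.2% and 28.2%. Among the 1190 3′ UTR peaks and 426 coding peaks of 1000 bases or more, they were 13.5% and 36.9%. Of the m6A peaks, 35.5% spanned over 500 bases from start to end (median 325). With those left out, 15.3% of the 3′ UTR peaks overlapped an m6A peak by at least 1 base. The coding share was not computed that way, so whether the difference holds for shorter m6A peaks was not tested. No test of the difference itself was made, since each list stands for 1 pooled group.

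Position within the UTR went with m6A. In the first of the 10 parts of the segment 27.7% of summits were inside an m6A peak, in the second 17.6%, in the fifth 8.42% and in the last 1.17%. In segments of 2000 bases or more, the first part stood at 30.2% and the last at 0.83%. Counted in bases, the share was 27.2% between 100 and 199 bases from the start, 7.78% between 400 and 799, and 1.20% between 3200 and 6399. Beyond 6400 bases it was 0 of 48 summits. The YTHDF2 peaks that touched m6A were thus near the start of the UTR, and the later UTR held YTHDF2 peaks with few listed m6A peaks.

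Peaks of higher enrichment met m6A less frequently. With the peaks in 4 groups of equal size by fold enrichment, 17.7% of summits were inside an m6A peak in the lowest group, 12.8% in the second, 8.82% in the third and 4.92% in the highest. An overlap of at least 1 base was found for 30.6%, 25.4%, 19.5% and 14.9% of the peaks in these groups, from lowest to highest. Expression and position went with this order. The median of the genes' mean normalized counts, from the authors' deposited table, was 2655 in the lowest group and 638 in the highest, and the median distance from the start was 464 and 908 bases. The part of expression and position in the m6A shares was not tested. Overlapping peaks had a median enrichment of 2.68 and a width of 686 bases. The 2514 peaks that lay apart from the m6A peaks of their gene had 2.87 and 449 bases, at a median of 1692 bases from the nearest m6A peak. The 2827 peaks in genes with no m6A peak had 3.11 and 460 bases.

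How often a gene had a 3′ UTR peak went with its level in input RNA. A gene was counted as tested where the authors' deposited table gives an adjusted p. Of the 10778 tested genes, 4478 or 41.5% had a 3′ UTR peak. With the tested genes in 10 groups of equal size by mean normalized count, 7.51% did in the lowest group, 43.9% in the fifth, 61.3% in the ninth and 57.4% in the highest. The median enrichment of their 3′ UTR peaks went the other way, from 4.27 in the lowest group to 2.24 in the highest. Coding peaks went from 4.18 to 2.47. Fold enrichment was thus lower, in both classes, the higher the gene's level.

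**Figure D3:**
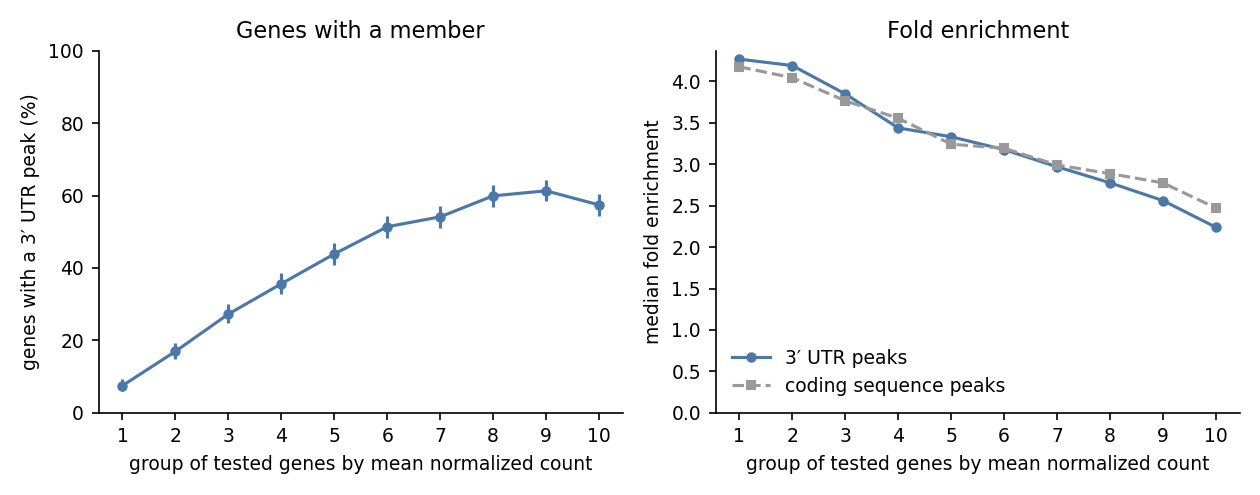
Percent of tested genes with a 3′ UTR peak (left; bars are 95% Wilson intervals) and median fold enrichment of the peaks (right; blue circles, 3′ UTR; grey squares, coding sequence) by group of tested genes, 10 groups of equal size ordered by mean normalized count in the input RNA. The share with a 3′ UTR peak goes from 7.51% in the lowest group to 61.3% in the ninth, while the median 3′ UTR enrichment goes from 4.27 to 2.24.

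The genotype comparison asks how the level of these transcripts stood between WT and cKO cells. It is the authors' own Wald test on the m6A input libraries, and a gene was called at an adjusted p under 0.05. The sources used here do not say which genotype is the numerator. Ythdf2 itself, the targeted gene, had a log2 fold change of 1.10 (SE 0.16, adjusted p 2.1e-09) in the authors' deposited table, so positive means the sign of Ythdf2. Lyz2, the lysozyme gene of macrophages, had the opposite sign in the authors' deposited table, at -1.49 (SE 0.33, adjusted p 0.0013). With the direction unsettled, changes are given by sign alone. Ythdf2 had no 3′ UTR peak. In these bulk cultures, fewer cells of a type and less RNA per cell cannot be told apart. Of the 8 macrophage markers, 3 were called: Lyz2 and Itgam (-0.55) on the negative side and Cd68 (0.40) on the positive, in the authors' deposited table. Of the 3 tested fibroblast markers 1 was called, Col1a1 at 0.56 (SE 0.17, adjusted p 0.049), while Col1a2 stood at 0.46 and Col3a1 at -0.20 in the authors' deposited table. None of the tested markers of neutrophils (3), T and NK cells (1) or B cells (1) was called by the authors' Wald test, and 1 had an unadjusted p under 0.05, Cd4 at 0.79 (SE 0.25) in the authors' deposited table. The part of such cells in the calls that follow was not tested.

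Among the 10778 tested genes, 250 or 2.32% were called in the authors' deposited table, 1.76% on the positive and 0.557% on the negative side. Of the 4478 with a 3′ UTR peak, 126 or 2.81% were called, 101 positive and 25 negative. The share is close to that of all tested genes, and the median log2 fold change was 0.02 against -0.01 over all. In the upper 50% by mean count 3.26% of the genes with a 3′ UTR peak and 3.70% of those without were called. In the lower 50% it was 1.84% of the 1415 with a 3′ UTR peak and 0.956% of the 3974 without. The order of the shares thus differed between the upper and the lower set. With and without a 3′ UTR peak, median counts were 1995 and 1795 in the upper set and 386 and 199 in the lower. The part of expression in these shares was not tested, and the difference was tested in neither set.

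Dividing the same genes further set shares apart. Of the 1452 genes whose 3′ UTR peak overlapped m6A, 67 or 4.61% were called, 50 positive and 17 negative. Of the 3026 whose 3′ UTR peaks did not, 59 or 1.95% were called. The first set was also better expressed, with a median count of 1895 against 1045 in the authors' deposited table. Within the upper 50% by mean count the shares were 5.14% and 2.08%, and the genes with an m6A peak but no 3′ UTR peak stood at 3.74%. The second division was by coding peaks. Of the 1881 genes with both 3′ UTR and coding peaks, 73 or 3.88% were called, 70 of them positive and 3 negative. Of the 2122 with 3′ UTR peaks alone, 42 or 1.98% were called, 25 positive and 17 negative. Here too the first set was better expressed, with a median count of 1672 against 888. Within the upper 50% by mean count the shares were 4.27% (60 positive, 3 negative) and 2.24% (15 positive, 12 negative). These are descriptions: no test of the differences was made.

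On the positive side, the 10 called genes of smallest adjusted p with a 3′ UTR peak were Plcxd2, Il7r, Ifit3b, Ifit1, Gbp5, Dio2, Cd300lf, H2-Q6, Il1rn and Clic5. Plcxd2, a phospholipase-like gene, had a log2 fold change of 1.14 (SE 0.18, adjusted p 6.6e-07) in the authors' deposited table and 2 peaks, the stronger of 4.11-fold. Il7r, the interleukin-7 receptor, stood at 0.84 (SE 0.14, adjusted p 1.3e-06) in the authors' deposited table, with a 1.71-fold peak whose summit was inside an m6A peak. Dio2, the enzyme that activates thyroid hormone, had the largest value of the 10, 1.39 (SE 0.27, adjusted p 7.5e-05) in the authors' deposited table, and 3 peaks of up to 6.85-fold, none of which overlapped an m6A peak. Cd300lf, an inhibitory receptor of myeloid cells, H2-Q6, a class Ib histocompatibility gene, and Clic5 stood at 0.74, 0.77 and 0.98 in the authors' deposited table. H2-Q6 and Ifit3b have near-identical copies, so their reads may be shared. Of the 10 genes, 6 had a 3′ UTR summit inside an m6A peak: Il7r, Ifit3b, Ifit1, Gbp5, Cd300lf and H2-Q6. Among all 4478 tested genes with a 3′ UTR peak, 728 had such a summit. The share of such summits was higher in abundant genes, 19.9% in the highest of the 10 groups by mean count. The part of expression in the count of 6 was not tested.

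On the negative side the 10 were Slc9a9, Itgam, Itga9, Lyz2, Rab3il1, Man2a2, Pecam1, Trpm2, Saa3 and Ier3. Slc9a9, an endosomal sodium-proton exchanger, stood at -0.91 (SE 0.18, adjusted p 0.00014) in the authors' deposited table, with a peak of 5.06-fold. Itgam, the integrin CD11b that marks myeloid cells, stood at -0.55 (SE 0.11) in the authors' deposited table and had a 2.25-fold peak (chr7:128117220-128118203). Itga9, another integrin, had 6 peaks of up to 6.03-fold and a value of -0.77 in the authors' deposited table. Lyz2 had a single peak of 1.74-fold, 572 bases into its UTR (chr10:117277485-117278269), apart from m6A. Man2a2, an enzyme of glycan trimming, the adhesion molecule gene Pecam1, the calcium channel gene Trpm2 and the acute phase gene Saa3 stood at -0.73, -0.82, -0.95 and -0.49 in the authors' deposited table. A summit inside an m6A peak was found in 3 of these 10, Itga9, Rab3il1 and Ier3, beside 728 of all 4478 tested genes with a 3′ UTR peak.

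Gene lists of macrophage biology were then examined. Type I interferon response genes were the list with the most calls. Of its 32 tested genes 21 had a 3′ UTR peak, and 6 of these were called, all positive: Ifit1, Ifit3, Rsad2, Oasl1, Cmpk2 and Ifi44. Here and in the lists that follow, the counts of called genes stand beside 2.32% of all tested genes and 2.81% of those with a 3′ UTR peak. All 21 had a log2 fold change above 0, with a median of 0.26, and so did all 11 tested genes of the list without a 3′ UTR peak, with 3 called and a median of 0.26. The positive sign was thus not tied to a 3′ UTR peak within the list. The 26 peaks were weak, with a median enrichment of 2.16, in highly expressed genes: the 21 genes had a median count of 20768 in the authors' deposited table. Their summits lay inside an m6A peak in 11 of 26 cases, 42.3%, beside 11.1% of all 3′ UTR summits. Of the summits in the most abundant 10% of tested genes, 19.9% lay inside one. These shares also stand beside the counts of such summits in the lists that follow.

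Cmpk2, a nucleotide kinase next to Rsad2 on chromosome 12, had the highest value of the called genes, 0.60 (SE 0.13, adjusted p 0.00072) in the authors' deposited table, and a peak of 1.96-fold (chr12:26477835-26479383). The antiviral radical-SAM enzyme gene Rsad2, viperin, had 2 peaks, the stronger of 2.05-fold (chr12:26442875-26445679), and a value of 0.53 (SE 0.13) in the authors' deposited table. Ifit1, which binds foreign 5′ ends of RNA, had its summit 62 bases from the start, inside an m6A peak, at 2.01-fold (chr19:34648433-34649128), with a value of 0.56 (SE 0.10) in the authors' deposited table. Ifit3 had a 2.42-fold peak and Oasl1, an inhibitor of Irf7 translation, one of 1.63-fold. These 5 genes and Ifi44 each had a summit inside an m6A peak. The strongest peaks of the list were in genes that were not called: Eif2ak2, the kinase PKR, at 3.59-fold, Bst2, tetherin, at 2.98-fold and Trim25 at 2.95-fold. The authors' deposited table gives Ifi44 a value of 0.47 (SE 0.14, adjusted p 0.028; 0.070 when no filter on mean count was applied).

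Genes of the interferon gamma response and its GTPases had 3′ UTR peaks in 14 of 25 tested members, and 2 were called, Gbp5 and Gbp7, guanylate-binding proteins that attack the membranes of microbes. In the authors' deposited table Gbp5 stood at 0.64 (SE 0.12, adjusted p 4.9e-05) and Gbp7 at 0.40 (SE 0.12, adjusted p 0.038; 0.094 without the filter). Of the 11 tested genes without a 3′ UTR peak, 5 were called, all positive. Ifngr2, at 3.78-fold, and Socs1, the feedback inhibitor of this receptor, at 3.23-fold (chr16:10783953-10784963), had the strongest peaks. Their values were 0.13 (SE 0.11) and 0.01 (SE 0.18) in the authors' deposited table, and neither was called.

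Chemokine and cytokine genes had peaks in 13 of 28 tested members, with 3 called positive. Il1rn, the antagonist of the interleukin-1 receptor, stood at 0.62 (SE 0.12, adjusted p 0.00011) in the authors' deposited table, with a 1.78-fold peak (chr2:24349317-24350901). Cxcl10, a chemokine for T cells, stood at 0.55 (SE 0.13, adjusted p 0.0028) in the authors' deposited table, with a 1.66-fold peak. Csf1, the gene of M-CSF, had the strongest peak of the list, 3.82-fold, and a value of 0.61 (SE 0.18, adjusted p 0.034; 0.084 without the filter) in the authors' deposited table. Cxcl1, a chemokine for neutrophils, and the anti-inflammatory cytokine gene Il10 had peaks of 3.76-fold and 3.52-fold. Neither was called, at 0.28 (SE 1.20) and 0.42 (SE 0.23) in the authors' deposited table, and the SE of Cxcl1 was far above the median over tested genes, 0.167. Only 1 of the 14 summits of this list lay inside an m6A peak, that of Ebi3, a subunit of interleukin-27 and interleukin-35.

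Immediate early and feedback genes, many of which carry AU-rich elements, had a 3′ UTR peak in 17 of 29 tested members, and 3 were called, beside 2.32% of all tested genes. Zfp36l2, itself a protein that binds AU-rich elements and speeds decay, stood at 0.55 (SE 0.14) in the authors' deposited table and had 2 peaks, one of 4.01-fold. The kinase gene Plk2 stood at 0.64 (SE 0.16) and Ier3, a stress response gene, at -0.49 (SE 0.13) in the authors' deposited table, each with a 2.48-fold peak. Each of these 3 genes had a summit inside an m6A peak, and 7 of the 21 summits of the list did. After Jund, the strongest member was Btg2, an antiproliferative gene whose protein recruits deadenylases, at 4.77-fold (chr1:134075414-134077580). Its value in the authors' deposited table was -0.49 (SE 0.19) and was not called.

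In the NF-kB pathway 18 of 29 tested genes had a 3′ UTR peak, and 1 was called, the signalling adaptor gene Traf1, at 0.47 (SE 0.14, adjusted p 0.037; 0.092 without the filter) in the authors' deposited table. Cyld, the deubiquitinase that restrains the pathway, had 4 peaks, the strongest of 5.78-fold (chr8:88750949-88751441). Traf3 and Traf6, adaptors of Toll-like receptor and TNF family signalling, had 3 peaks each, of up to 4.38-fold and 4.31-fold, all apart from m6A. Pattern recognition receptors and adaptors had peaks in 16 of 28 tested members and 0 called genes by the authors' Wald test, with 4 at an unadjusted p under 0.05, all positive. Nod2, the sensor of bacterial cell wall fragments, had 2 peaks, one of 5.21-fold (chr8:88686507-88687100), and both summits were inside an m6A peak. Of the 17 summits of that list, 7 lay inside an m6A peak.

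Antigen presentation and checkpoint genes had peaks in 14 of 25 tested members, with 1 called on each side. Cd274, the checkpoint ligand PD-L1, stood at 0.42 (SE 0.10, adjusted p 0.0058) in the authors' deposited table and had 2 peaks, of up to 2.03-fold (chr19:29385265-29386248), with both summits inside an m6A peak. Vsir, the checkpoint protein VISTA, stood at -0.39 (SE 0.11, adjusted p 0.025; 0.062 without the filter) in the authors' deposited table, with a 2.45-fold peak that covered 3768 bases. The costimulatory genes Cd80 and Cd86 had the strongest peaks, of 4.88-fold and 4.09-fold, and were not called. H2-D1 and H2-K1, whose counts were the highest of the list, had peaks of 1.81-fold and 1.85-fold, and as class I genes they share sequence with their relatives.

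The writers, erasers and readers of m6A had 3′ UTR peaks in 12 of 20 tested members, 1 peak each, and 0 of the 12 summits lay inside an m6A peak. The strongest were in Rbm15b, an adaptor of the methyltransferase, at 5.34-fold (chr9:106881125-106881659), the reader gene Ythdc2 at 4.55-fold and Mettl14, the partner of the catalytic subunit, at 4.18-fold. The paralogs Ythdf1 and Ythdf3 had peaks of 2.34-fold and 2.31-fold. Their log2 fold changes were -0.00 (SE 0.13) and 0.08 (SE 0.13) in the authors' deposited table. By the authors' Wald test 0 of the 12 genes were called, and 1 had an unadjusted p under 0.05.

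The machinery of mRNA decay, through which YTHDF2 acts, had a 3′ UTR peak in 20 of 31 tested genes. There were 39 peaks in all, with a median enrichment of 3.31. Inside an m6A peak lay 3 of the 39 summits, 7.69%, beside 11.1% of all 3′ UTR summits. The share was 8.90% in the seventh of the 10 groups by mean count, where the median count of the 20 genes, 1160, falls. Rc3h1, the gene of Roquin, which binds stem-loops in cytokine messages, had 5 peaks and the deadenylase gene Cnot6 had 4. The strongest peaks were in Rida at 5.24-fold, in Cnot10, a subunit of CCR4-NOT, at 5.16-fold (chr9:114586210-114586479), and in the deadenylase gene Pan2 at 4.25-fold. By the authors' Wald test 0 of the 20 genes were called, with 1 at an unadjusted p under 0.05, and their median log2 fold change was 0.02 in the authors' deposited table.

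Of the lysosome, phagocytosis and scavenger receptor genes 18 of 31 had peaks, and 2 were called. Gpnmb, a glycoprotein of lysosomes and macrophages, stood at 0.55 (SE 0.15, adjusted p 0.021; 0.052 without the filter) in the authors' deposited table. Mrc1, the mannose receptor CD206, stood at -0.78 (SE 0.21, adjusted p 0.018) in the authors' deposited table, with the strongest peak of the list, 3.91-fold (chr2:14331414-14331798). Lineage and transcription factor genes had peaks in 16 of 24 tested members, and 8 of 21 summits lay inside an m6A peak. Bhlhe40, a repressor of interleukin-10, was the called member, at 0.68 (SE 0.18) in the authors' deposited table. Spi1, the master regulator PU.1, had its summit 4 bases from the start of the UTR, inside an m6A peak, at 1.78-fold.

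Metabolic genes of activated macrophages had peaks in 19 of 27 tested members and apoptosis genes in 10 of 25, with 0 called in either by the authors' Wald test. At an unadjusted p under 0.05 there were 3 metabolic genes, 1 positive and 2 negative, and 4 apoptosis genes, all positive. Pdk1, the kinase that closes pyruvate dehydrogenase, had 4 peaks, of up to 5.31-fold, and stood at -0.59 (SE 0.19, adjusted p 0.067) in the authors' deposited table. Nos2, the source of nitric oxide in M1 cells, had a 1.76-fold peak. The survival gene Bcl2 had 3 peaks, of up to 4.73-fold, and the death genes Bbc3 and Bid peaks of up to 4.72-fold and 4.38-fold. Genes of cytosolic ribosomal proteins were the list without any: 0 of 31 had a 3′ UTR peak, whereas 9 had a coding peak. Their median mean normalized count, 4419 in the authors' deposited table, was above that of all tested genes, 739. All 31 had a log2 fold change below 0 in the authors' deposited table, with a median of -0.29 and 2 called.

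**Figure D4:**
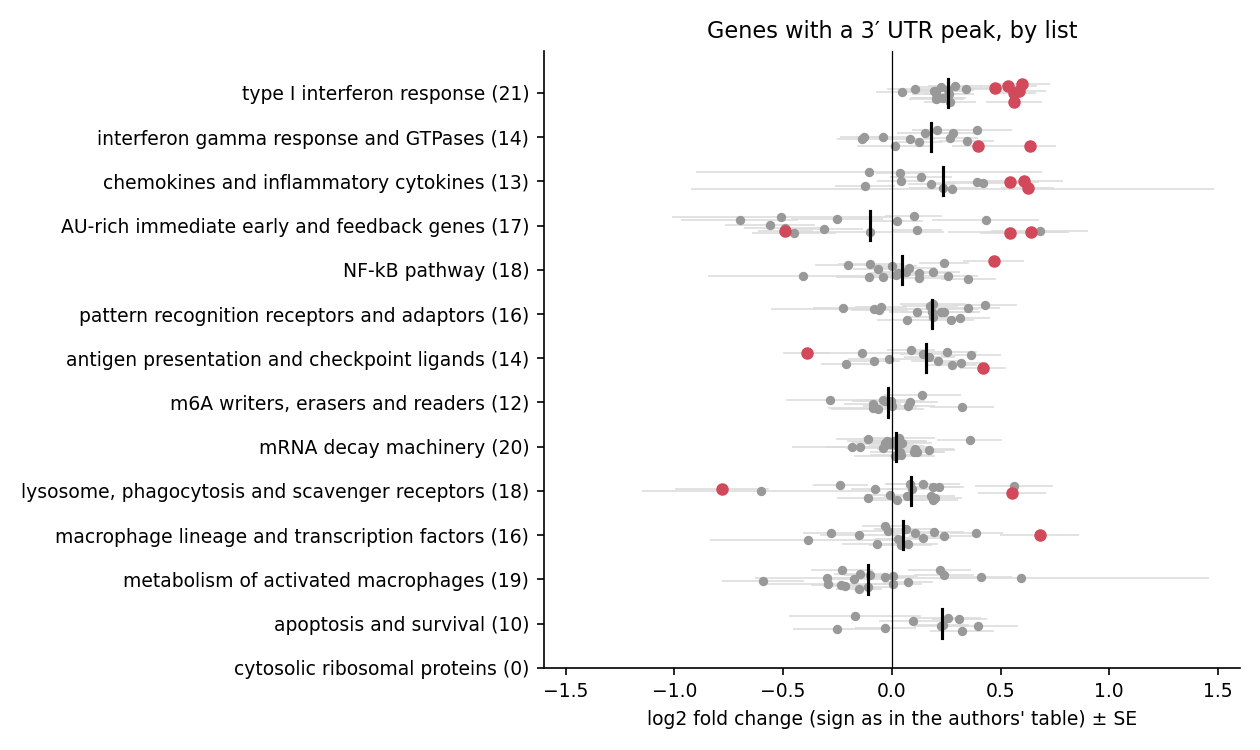
Log2 fold change between genotypes of each tested gene with a 3′ UTR peak, by gene list (number of genes in parentheses; positive is the sign of Ythdf2), from the authors' deposited table. Grey bars are standard errors, red points are called genes and black ticks are list medians; all 21 type I interferon genes lie above 0, and the ribosomal list has 0 genes with a 3′ UTR peak.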

How the data were processed

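The members, gene lists and comparisons were chosen with earlier results of these data known. The YTHDF2 list, per the file's column order, holds a fold enrichment ratio, a score, and −log10 p and −log10 q, as deposited by the authors; the score is not used. No source used here names its caller. HISAT2, HOMER, ChIPseeker and mm10 are named, without roles, in the submitters' processing notes. The WT m6A list was deposited with gene, start, end and strand. The input table gives a signal (mean of counts divided by size factors), log2 fold change, standard error, a Wald score, and p-values, per the file headers of the authors, in DESeq2's column names. Library depths are unknown. Per-library values were not used here: the 3 files hold 0 such columns.

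Of the 45541 rows, 3234 were repeats. Symbols were matched directly, by Ensembl identifier or by RefSeq synonym: 4553 of 4608 genes were found, 357 by synonym. Overlap needed 1 base within the same gene name. Intervals are Wilson's at 95%. Named genes were the leading peaks by enrichment (15), −log10 q (10), width (5) and distance (5), the 10 genes with most peaks, the 10 called genes of smallest adjusted p on each side, and, per list, members called, of highest enrichment or of highest count. Fewer were described; Ythdf1, Ythdf3, Ebi3, Rc3h1, Cnot6, Nos2 and the hosts of printed sequences fall outside this rule and were named after their values were seen. The code (Python 3.11.15, pandas 2.3.3, numpy 2.4.6, scipy 1.17.1) was tested on simulated peaks. Alternatives concerned the class rule, the summit, the m6A overlap and the calls.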

Additional observations from a re-analysis of the deposited data

How the results depend on the processing

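Of 19 alternatives, 10 stayed within the limits set for them (the interval of the main value, or 1.5 times a count) and 9 did not. Some of these were not planned beforehand. They were first segments on the plus strand, leaving out segments numbered past the first and matching genes by Ensembl identifier, all within the limits. Also unplanned was the count of called genes with a summit inside an m6A peak, which lay outside them. The number of 3′ UTR peaks, 6902, lay between 6373 and 6680 under 3 other rules, and 6287 peaks were shared with the class by midpoint. The share of summits in the first 200 bases, 22.2%, was 12.3% in single segments of at least 1000 bases and 23.3% by midpoint. The median enrichment, 2.91, was 3.05 with 1 peak per gene. The m6A overlap, 22.6%, was 11.1% for summits inside the m6A peak, 8.69% where 50% of the peak had to be covered, and 15.3% with m6A peaks of at most 500 bases. The 126 called genes became 65 at 1.5-fold or more, 42 in genes whose every peak is in the 3′ UTR, and 36 in genes with a summit inside an m6A peak, an alternative added after seeing the data; 89 were called without the filter on mean count (74 positive, 15 negative) and 105 after centring on the most abundant 25% of genes (77 positive, 28 negative), where all genes shifted by 0.04. The calls lost without the filter numbered 37, and those lost on centring 24. The lower m6A shares and gene counts come with stricter overlaps or fewer genes by construction; for the other values the cause was not tested. No paired analysis was possible because the files hold no value per library. For the same reason leaving out a replicate was not run, and GGACT around all summits, in windows of 25, 50 or 100 bases, was not run because sequence was read for 10 summits alone.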
